A study of Bos taurus with 21 samples.

Results

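The 10 genes that mark adipocytes or build their lipid store were followed through foetal life in the muscle of 2 cattle breeds: the adipogenic regulators *PPARG* and *CEBPA*, the lipase *LPL*, the lipogenic enzymes *SCD*, *FASN* and *DGAT2*, the fatty acid carrier *FABP4*, the lipid droplet coat protein *PLIN1* and the adipokines *ADIPOQ* and *LEP*. Their probes were found by matching the RefSeq transcript that each array probe targets to the cattle annotation. This gave 23 probes of 8 genes, among 43653 probes and 12538 named genes. *ADIPOQ* and *FASN* matched no probe and are not analysed here. Each gene is described by its brightest probe, and its other probes are given where they bear on the result.

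The RNA came from 10 Blonde d'Aquitaine (BA) and 11 Charolais (CH) foetuses, 1 array per foetus, with 3, 2, 3 and 2 BA and 2, 3, 3 and 3 CH foetuses at 110, 180, 210 and 260 days post conception (dpc). BA is a heavily muscled breed and CH the beef breed it was set against. The labels call the muscle Longissimus thoracis and the study's methods call it Semitendinosus. There were 3 male and 7 female BA foetuses and 5 male and 6 female CH foetuses, by 2 sires in each breed, and none was treated. Sex was not balanced within stages. At 110 dpc both CH foetuses were female, and at 180 and at 260 dpc both BA foetuses were, while the other breed included males. Sex and breed are therefore partly mixed at these stages. The BA foetuses were not genotyped at the myostatin locus.

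Adipocytes inside muscle arise from mesenchymal progenitors that lie between the fibres. *PPARG* and *CEBPA* drive their differentiation, after which the cell takes up fatty acids, joins them to glycerol and stores the triglyceride in a droplet coated with perilipin. The same steps are known from the marbling fat of adult beef. Several of these genes are also active outside adipocytes, *LPL* in muscle fibres and *FABP4* in capillary endothelium. In a piece of whole muscle, fewer adipocytes and less RNA per adipocyte cannot be told apart.

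Values are normalized log2 intensities, on which 1 unit is a doubling and 0 lies near the median of all probes. They show how one probe varied between foetuses and do not rank one gene against another. The scanner software marked 29017 to 34501 probes of an array as well above background (median 30544). There were 6 slides and 3 scan days. The 4 arrays of the last day held 33182 such probes on average, against 29723 to 30667 on the other slides. All 8 muscle fibre markers listed, myosins and troponins among them, were well above background. All 8 rose from 110 to 260 dpc in both breeds, against 15.8% of all probes in BA and 16.2% in CH.

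Of the 8 genes, 7 were already detected at the first stage. *PPARG*, *CEBPA*, *LPL*, *SCD*, *DGAT2*, *FABP4* and *PLIN1* were well above background on all 21 arrays, the 5 arrays at 110 dpc included. Of all 43653 probes, 26224 were well above background on every array. For *CEBPA* and *PLIN1* this detection rests on the brightest probe, because the second probe of each was well above background on no array. *LEP*, the adipokine that reports fat stores, was marked well above background on 3 of 21 arrays, 1 in BA at 110 dpc, 1 in BA at 210 dpc and 1 in CH at 210 dpc. Its other 2 probes were marked so on none. *LEP* was not well above background on any of the 5 arrays at 260 dpc. From 180 dpc on *LPL* rose at each step, *PPARG* rose from 110 to 260 dpc, *CEBPA* and *SCD* did not pass between any stages, and *FABP4*, *DGAT2* and *PLIN1* were high in a few foetuses of several stages.

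**Figure D1:**
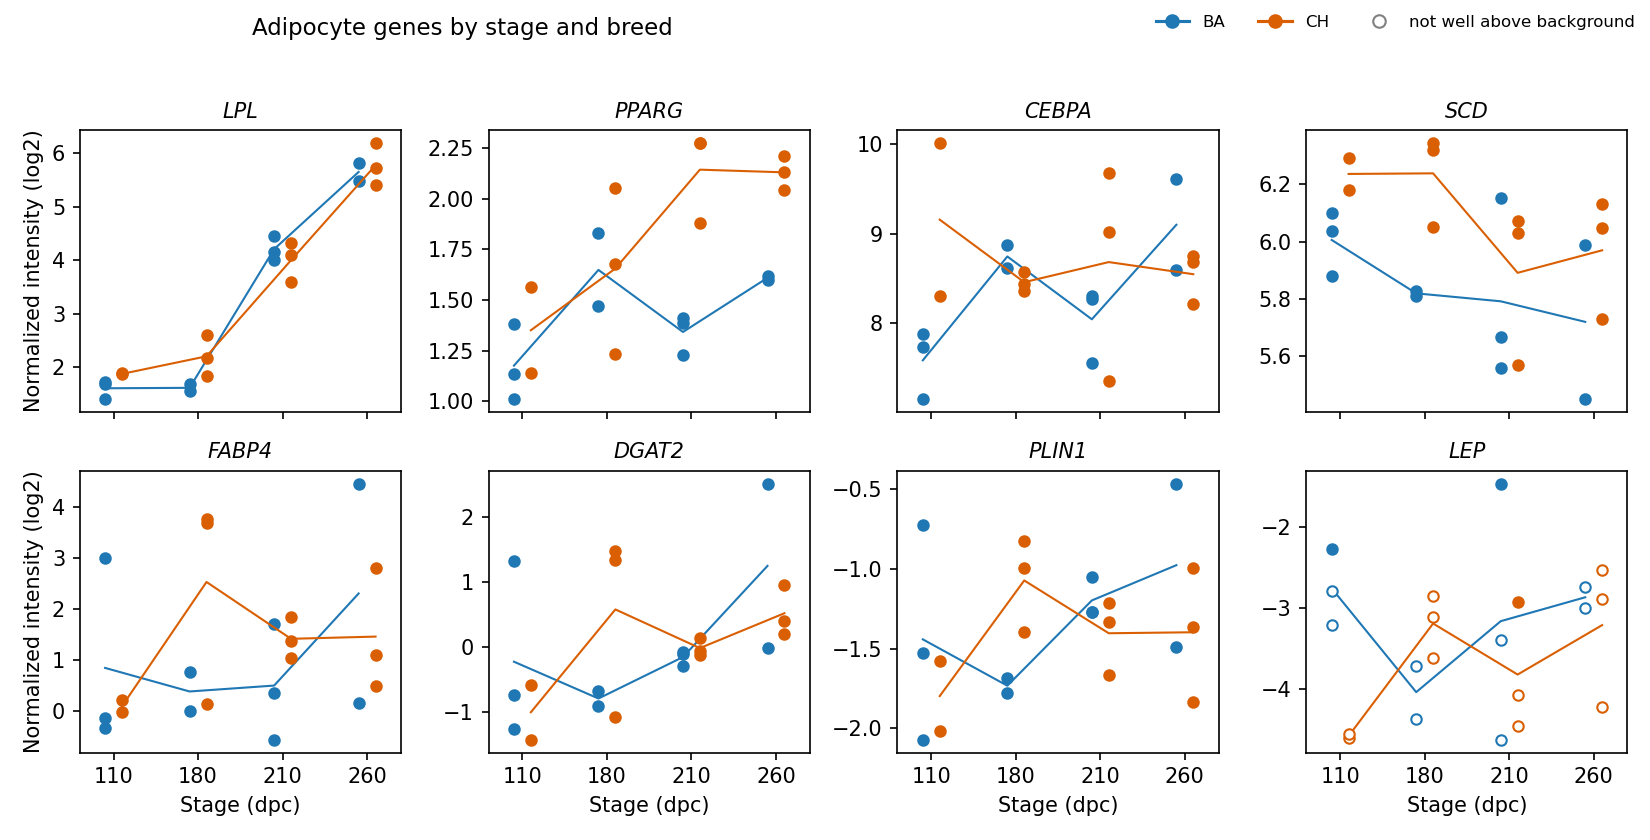
Normalized log2 intensity of the 8 genes (vertical axis, a separate scale for each gene) against stage in dpc, 1 point per foetus, with lines joining the group means of BA and CH. Filled points were well above background on that array and open points were not. *LPL* separates the stages from 180 dpc on, *FABP4* runs from 0.14 to 4.47 among the 5 foetuses at 260 dpc, and only 3 points of *LEP* are filled.

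*LPL*, which frees fatty acids from circulating triglyceride at the capillary wall, rose the most of the 8 genes. In BA its values were 1.69, 1.73 and 1.41 at 110 dpc, 1.55 and 1.68 at 180 dpc, 4.00, 4.17 and 4.46 at 210 dpc and 5.82 and 5.49 at 260 dpc. In CH they were 1.87 and 1.89, then 2.61, 2.17 and 1.84, then 4.32, 3.59 and 4.11, and finally 5.41, 6.20 and 5.73. Every foetus at 210 dpc was above every foetus at 180 dpc, and every foetus at 260 dpc above every foetus at 210 dpc, in both breeds. Averaged over the breeds, *LPL* did not pass the test between 110 and 180 dpc (difference 0.17, SE 0.19, limma adjusted p = 0.651). It rose 4.58-fold from 180 to 210 dpc (log2 difference 2.20, SE 0.18, limma adjusted p = 1.1e-05) and 3.05-fold from 210 to 260 dpc (1.61, SE 0.18, limma adjusted p = 1.26e-05). From 110 to 260 dpc BA foetuses rose 16.5-fold (limma adjusted p = 2.56e-08) and CH foetuses 15.0-fold (limma adjusted p = 3.77e-08). The second *LPL* probe rose 12.5-fold in BA and 12.4-fold in CH. The third was well above background on 12 of 21 arrays, and between CH at 110 and 260 dpc it rose at least 5.18-fold. That bound sets the mean at 260 dpc against the dimmest probe well above background on each 110 dpc array. On the slides that held both stages of a breed, *LPL* was higher at 260 than at 210 dpc by 1.30 and 2.14 in CH and by 1.81 in BA.

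The muscle fibre markers also rose over these stages, but not step for step with *LPL*. Averaged over the breeds, their median change was 1.00 from 110 to 180 dpc, where *LPL* did not pass. It was 0.48 from 180 to 210 dpc, the largest step of *LPL*, and 1.21 from 210 to 260 dpc. The mean of the 8 markers, centred on each marker's mean over all arrays, lay between −1.59 and −1.10 at 110 dpc, −0.60 and −0.20 at 180 dpc, −0.14 and 0.27 at 210 dpc and 1.32 and 1.64 at 260 dpc. Their part in the rise of *LPL* was not tested.

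*PPARG*, the nuclear receptor that commits a progenitor to the adipocyte fate, rose 1.52-fold from 110 to 260 dpc on average over the breeds (log2 difference 0.61, SE 0.15, limma adjusted p = 0.00379). Its CH values were 1.56 and 1.14 at 110 dpc, 2.05, 1.23 and 1.68 at 180 dpc, 2.27, 1.88 and 2.28 at 210 dpc and 2.13, 2.21 and 2.05 at 260 dpc. In BA they were 1.14, 1.01 and 1.38, then 1.83 and 1.47, then 1.39, 1.41 and 1.23, and finally 1.60 and 1.62. The breeds overlapped at 110 and 180 dpc and not at 210 and 260 dpc, where every BA foetus was below every CH foetus. Taken by breed, the rise in CH was 1.72-fold (log2 difference 0.78, SE 0.21, limma adjusted p = 0.0102). BA foetuses gained 0.43 (SE 0.21, limma adjusted p = 0.143). The breeds' changes did not pass a test against each other (difference −0.35, SE 0.30, limma adjusted p = 0.985). The second *PPARG* probe gave 0.70 in CH (limma adjusted p = 0.0267) and 0.60 in BA (limma adjusted p = 0.0535). The average rise passed with any 1 array left out, and was lost with slide as a block (0.56, limma adjusted p = 0.12) and on the authors' value table (0.22, limma adjusted p = 0.516). The call in CH was lost under both (limma adjusted p = 0.15 and 0.441) and without CH replicate 2 at 110 dpc (0.57, limma adjusted p = 0.146).

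*CEBPA*, the transcription factor that sustains *PPARG* and the adipocyte programme, had no steady course. In BA its values were 7.15, 7.73 and 7.87 at 110 dpc, 8.61 and 8.88 at 180 dpc, 8.31, 8.27 and 7.56 at 210 dpc, and 8.59 and 9.61 at 260 dpc. In CH they were 8.30 and 10.02, then 8.44, 8.36 and 8.57, then 7.35, 9.01 and 9.68, and finally 8.75, 8.21 and 8.69. CH foetuses lay far apart at 110 and 210 dpc (SD 1.21, n = 2, and SD 1.20, n = 3), and every BA foetus at 110 dpc was below every CH foetus of that stage. Between 110 and 260 dpc BA foetuses differed by 1.52 (SE 0.57, limma adjusted p = 0.0528), and CH foetuses by −0.61 (limma adjusted p = 0.456). It passed in BA without the 4 arrays of the last slide (1.66, limma adjusted p = 0.0314) and under 6 of the 11 other settings, while with slide as a block it was 0.42 (limma adjusted p = 0.691). On none of the arrays was the second *CEBPA* probe well above background, so the gene rests on 1 probe.

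*SCD*, which desaturates stearate and palmitate, varied little. Its group means lay between 5.72 and 6.24, and over the whole period BA foetuses changed by −0.29 (limma adjusted p = 0.339), CH foetuses by −0.27 (limma adjusted p = 0.378). All 7 *SCD* probes were lower at 260 than at 110 dpc on average over the breeds, by 0.09 to 0.61 on the log2 scale, and 2 of them passed the limma test (adjusted p = 0.00307 and 0.0248).

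*FABP4*, the fatty acid carrier that fills the cytoplasm of a mature fat cell, spread widely among foetuses of a group. In BA its values were 3.01, −0.33 and −0.15 at 110 dpc, 0.00 and 0.76 at 180 dpc, 0.35, 1.70 and −0.57 at 210 dpc, and 4.47 and 0.14 at 260 dpc. In CH they were 0.20 and −0.03, then 3.69, 0.14 and 3.77, then 1.37, 1.04 and 1.84, and finally 0.49, 2.80 and 1.09. A few foetuses stood high at 110, 180 and 260 dpc beside lower group mates, and CH at 210 dpc was the one group of 3 that lay close together. From 110 to 260 dpc BA foetuses gained 1.46 (SE 1.31, limma adjusted p = 0.437). The gain of CH foetuses was 1.37 (SE 1.31, limma adjusted p = 0.468). The 95% interval in BA ran from −1.33 to 4.26.

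*DGAT2*, which adds the last fatty acid to a triglyceride, was high in the same foetuses. Its BA values were 1.32, −1.26 and −0.74 at 110 dpc, −0.67 and −0.91 at 180 dpc, −0.10, −0.07 and −0.29 at 210 dpc, and 2.52 and −0.02 at 260 dpc. In CH they were −0.58 and −1.43, then 1.48, −1.08 and 1.34, then 0.15, −0.07 and −0.12, and finally 0.41, 0.96 and 0.20. Replicate 1 stood highest in BA at 110 and 260 dpc, and replicate 2 lowest in CH at 180 dpc, as for *FABP4*. Away from those foetuses *DGAT2* lay lower at 110 than at 260 dpc. Averaged over the breeds it rose 2.83-fold from 110 to 260 dpc (log2 difference 1.50, SE 0.57, limma adjusted p = 0.0453). The call was lost in 16 of the 21 fits that left out 1 array. Without BA replicate 1 at 260 dpc the difference was 0.87 (limma adjusted p = 0.26), and with slide as a block 1.21 (limma adjusted p = 0.335). Within a breed it did not pass (1.48 in BA with limma adjusted p = 0.192, 1.53 in CH with limma adjusted p = 0.176).

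*PLIN1*, the perilipin of the adipocyte droplet, had its highest values in BA replicate 1 at 260 dpc (−0.47), BA replicate 1 at 110 dpc (−0.73) and CH replicates 1 and 3 at 180 dpc (−0.83 and −0.99), of a range down to −2.07. These 4 foetuses were also high for *FABP4* and *DGAT2*, but CH replicate 1 at 260 dpc, low for *FABP4* (0.49), stood next at −0.997, and CH replicate 2 at 260 dpc, high for *FABP4* (2.80), was at −1.36. Over the whole period its difference was 0.46 in BA (limma adjusted p = 0.362), while CH gave 0.40 (limma adjusted p = 0.437). On none of the arrays was the second *PLIN1* probe well above background.

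Counted over the 8 genes, the limma fit over all probes called 0 from 110 to 180 dpc, where it called 13.2% of all probes. At an unadjusted p under 0.05 there was 1 gene, and the share of all probes at that threshold was not counted. The fit called *LPL* from 180 to 210 dpc (3.62% of all probes) and *LPL* from 210 to 260 dpc (24% of all probes). From 110 to 260 dpc it called *LPL* in BA (33.3% of all probes), *LPL* and *PPARG* in CH (32.7%), and *LPL*, *PPARG* and *DGAT2* on average over the breeds (43.9%). The share of the 8 genes called over the whole period was therefore below that of all probes in each breed. The median difference of the 8 genes over that period was 0.96 in BA and 1.07 in CH, against 0.03 and 0.15 over all probes. Both medians include *LEP*, which was well above background on 1 BA array at 110 dpc and on no other array at 110 or 260 dpc. Its part in them therefore rests on values at or near background.

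The breeds were then compared at each stage, as BA minus CH. None of the 8 genes passed at any stage or on average over the stages. Of all probes, limma called 0.0206% at 110 dpc, 0.0275% at 180 dpc, 0.00229% at 210 dpc, 0.0137% at 260 dpc and 0.0733% on average. At an unadjusted p under 0.05 there were 2 genes at 110 dpc (*CEBPA* and *LEP*), 1 at 180 dpc (*LPL*), 1 each at 210 and 260 dpc (*PPARG*) and 2 on average (*PPARG* and *SCD*). The breed difference in the change from 110 to 260 dpc and from 210 to 260 dpc was called for 0 of the 8 genes (0.00687% and 0% of all probes). For these changes 1 and 0 genes had an unadjusted p under 0.05. The share of all probes at that unadjusted threshold was not counted, so the unadjusted counts cannot be set against it. *LEP* was at or near background at 110 dpc.

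Foetuses of both breeds did not overlap for some genes. BA lay below CH for 3 of the 8 genes at 110 dpc (*CEBPA*, *LPL* and *SCD*), 4 at 180 dpc (*PLIN1*, *LPL*, *SCD* and *LEP*) and 1 each at 210 and 260 dpc (*PPARG*), against 10.6%, 9.9%, 4.71% and 8.15% of all probes. BA lay above CH for 1 gene at 110 dpc (*LEP*) and 1 at 180 dpc (*CEBPA*) and for 0 at 210 and 260 dpc, against 14.4%, 12.6%, 4.38% and 7.79% of all probes. *LEP* was well above background on 1 of the 5 arrays at 110 dpc and on 0 of the 5 at 180 dpc, so its order at these stages rests on values at or near background. Without it BA lay below CH for 3 genes at 180 dpc and above CH for 0 at 110 dpc.

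*PPARG* had the lowest p of the 8 genes in the average comparison. BA was below CH by 0.80 at 210 dpc (1.75-fold, SE 0.19, 95% interval −1.21 to −0.39, limma adjusted p = 0.542) and by 0.52 at 260 dpc (1.44-fold, SE 0.21, limma adjusted p = 1). At 110 and 180 dpc the differences were −0.18 and −0.01. Over all stages BA averaged 0.38 below CH (fitted −0.38, SE 0.10, limma adjusted p = 0.241). Over the 20000 exchanges of breed labels within stages an exact two-sided permutation gave p = 0.0083. The permutation was run on each of the 8 genes and its p is not adjusted for them. It was not run over all probes. With the authors' deposited matrix in place of the scaled intensities, 0 of the 7 genes that could be tested had an exact permutation p under 0.05, against 2 of 8 here. The slides that held both breeds gave −0.49 and −0.86 at 210 dpc and −0.51 and −0.45 at 260 dpc. The second probe differed by −0.69 at 210 dpc and by −0.34 on average.

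**Figure D2:**
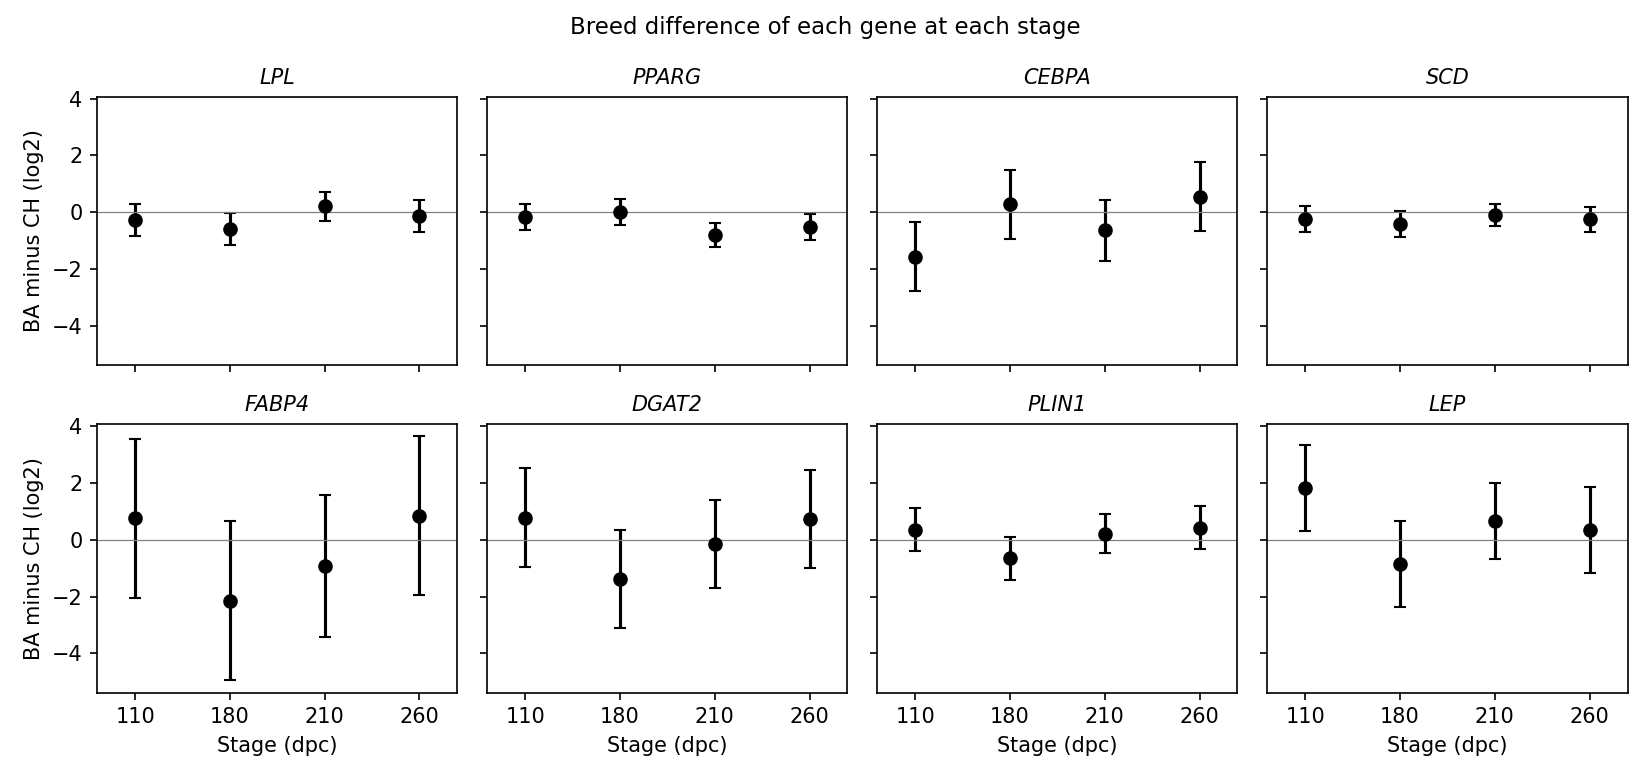
Difference between the breeds (BA minus CH, log2, vertical axis) for each of the 8 genes at 110, 180, 210 and 260 dpc, with points for the fitted difference and bars for the 95% interval of the limma fit. The interval of *PPARG* lies below 0 at 210 dpc (−1.21 to −0.39) and at 260 dpc, and the intervals of *FABP4* span over 5 log2 units at 110, 180 and 260 dpc.

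*SCD* differed in the same direction, by −0.25 on average (SE 0.10, limma adjusted p = 0.477, unadjusted exact two-sided permutation p = 0.0192). BA lay below CH without overlap at 110 dpc (5.88 to 6.10 against 6.18 to 6.29) and at 180 dpc (5.81 to 5.83 against 6.05 to 6.34) and overlapped CH later. For the other 6 genes the exact permutation p lay between 0.18 (*LPL*) and 0.998 (*DGAT2*). A single stage with 2 foetuses against 3 can give no exact two-sided p below 0.1. The average breed difference of *FABP4* was −0.37 with a 95% interval from −1.73 to 0.99, and that of *LPL* −0.19 with an interval from −0.47 to 0.08.

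At 260 dpc, close to term, the 5 arrays were far apart for some genes and close for others. The range over the 5 foetuses was 20.0-fold for *FABP4*, 5.80-fold for *DGAT2*, 2.64-fold for *CEBPA* and 2.58-fold for *PLIN1*. It was 1.73-fold for *LPL*, 1.60-fold for *SCD* and 1.53-fold for *PPARG*. BA replicate 1 was the highest of the 5 for *FABP4*, *PLIN1* and *DGAT2*, and BA replicate 2 the lowest for *FABP4*, *SCD* and *DGAT2*. The whole range of *FABP4* and *DGAT2* was therefore that between both BA foetuses, 4.47 against 0.14 and 2.52 against −0.02.

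**Figure D3:**
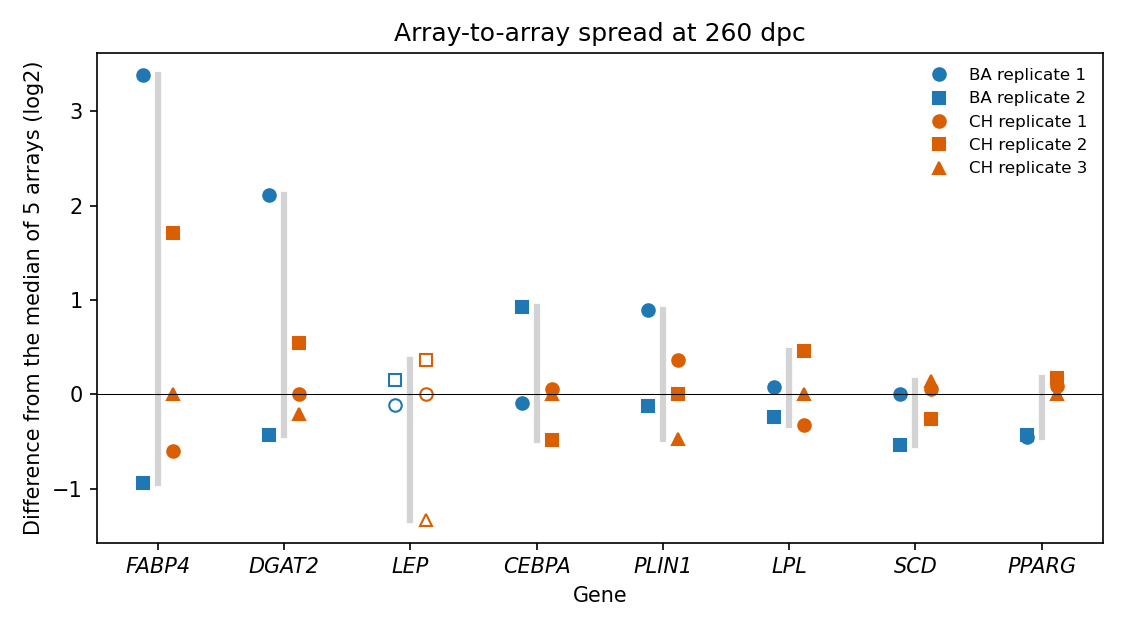
Array-to-array spread of the 8 genes at 260 dpc. Each of the 5 foetuses is a point, placed by its difference from the median of the 5 arrays (log2, vertical axis), the grey bar spans the range, and open points were not well above background. *FABP4* has the widest range (4.32 log2 units) and *PPARG* the narrowest (0.62).

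Pooled within the breeds, the SD at 260 dpc was 2.02 for *FABP4*, higher than in 99.6% of all probes, and 1.08 for *DGAT2*, higher than in 97.1%. It was 0.07 for *PPARG*, higher than in 4% of all probes. The median over the 8 genes was 0.51 at 260 dpc against 0.22 over all probes. At 110, 180 and 210 dpc it was 0.48, 0.34 and 0.30 against 0.28, 0.23 and 0.27. The wide spread was not particular to 260 dpc for *FABP4*, whose SD was 1.54 at 110 dpc, 1.72 at 180 dpc and 0.86 at 210 dpc. *DGAT2* spread as widely at 110 dpc (SD 1.17) and at 180 dpc (SD 1.18), but not at 210 dpc (SD 0.13). With 2 and 3 foetuses per group the SDs themselves are loosely known, and no test was made of them.

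The direction of the breed difference at 260 dpc turned with single foetuses. For *FABP4* it was 0.85 (95% interval −1.95 to 3.64), 3.01 without BA replicate 2 and −1.31 without BA replicate 1. For *DGAT2* it was 0.73, 2.00 and −0.54 in the same order. The pair of foetuses on one slide gave 3.38 for *FABP4* and 2.32 for *DGAT2*, and the pair on another slide −0.34 and −0.43.

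The markers of other cell types did not separate the 2 BA foetuses at 260 dpc alike. The mean of the 8 endothelial markers was −0.06 in both, and the 5 foetuses ranged from −0.49 to −0.06. The mean of the 8 muscle fibre markers was 1.48 and 1.60, and that of the 8 leukocyte markers 0.07 in both. The mean of the 8 connective tissue markers, collagens and *LUM* among them, was −0.41 in replicate 1 and −1.44 in replicate 2, and the CH foetuses lay between −1.51 and −0.89. The same list was highest of all arrays in BA replicate 1 at 110 dpc (1.83, against 0.06 and 0.71 in its group) and higher in CH replicates 1 and 3 at 180 dpc (0.55 and 1.22) than in replicate 2 (−0.05). All 8 connective tissue genes were detected. Their part in the values of *FABP4*, *DGAT2* and *PLIN1* was not tested.

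The highest correlations with *FABP4* inside the groups were those of *DGAT2* and *PLIN1*, and none of the 28 pairs of the 8 genes passed after adjustment. After each group mean was removed, Pearson's r over the 21 foetuses was 0.913 for *FABP4* with *DGAT2* (Spearman's rho 0.848), 0.704 for *PLIN1* with *DGAT2* (rho 0.643) and 0.669 for *FABP4* with *PLIN1* (rho 0.594). Over the 62208 rearrangements within groups, the exact two-sided permutation p was 0.00457, 0.0562 and 0.0592 for r and 0.00569, 0.0495 and 0.0637 for rho. Adjusted over the 28 pairs of the 8 genes, these were 0.128, 0.414 and 0.414 for r and 0.159, 0.346 and 0.357 for rho. Without the 2 foetuses farthest from the median of the first gene, r was 0.89, 0.672 and 0.619. Among the 12 arrays of the second scan day r was 0.947, 0.768 and 0.765, and the other days held too few arrays. *PPARG* and *LPL* had lower correlations with *FABP4*, 0.376 and 0.322 (adjusted exact permutation p = 0.635 and 0.661).

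The gene whose pattern was most like the mean of the 8 genes, among 10412 others, was *CIDEC*, which fuses lipid droplets in white adipocytes. Its r with the mean of the 8 centred genes was 0.899 over the 21 arrays and 0.897 after the group means were removed. The next over all arrays were *ELN* (0.849), *FBXO8* (0.846) and *CSGALNACT2* (0.833), and after centring *CHPF* (0.842), *BBS9* (0.829) and *ROBO1* (0.794). *ELN* encodes elastin, and *CHPF* and *CSGALNACT2* make chondroitin sulphate chains. These are descriptions over arrays that share slides and stages. The 8 genes were centred but not scaled, so those that varied most, *FABP4* among them, weigh most in the mean. *CIDEC* was well above background on 16 of 21 arrays. At 260 dpc it was at 2.54 and −1.66 in BA and at −1.38, 1.56 and −0.48 in CH. At 180 dpc it was at 1.20, −2.81 and 1.22 in CH, and at 110 dpc at −0.10 in BA replicate 1 and between −4.50 and −1.77 in the other 4 foetuses. The 5 foetuses highest for *CIDEC* at 110, 180 and 260 dpc were those highest for *FABP4*. Between the first and the last stage it differed by 2.90 in BA (limma adjusted p = 0.159), while CH gave 3.04 (limma adjusted p = 0.139).

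**Figure D4:**
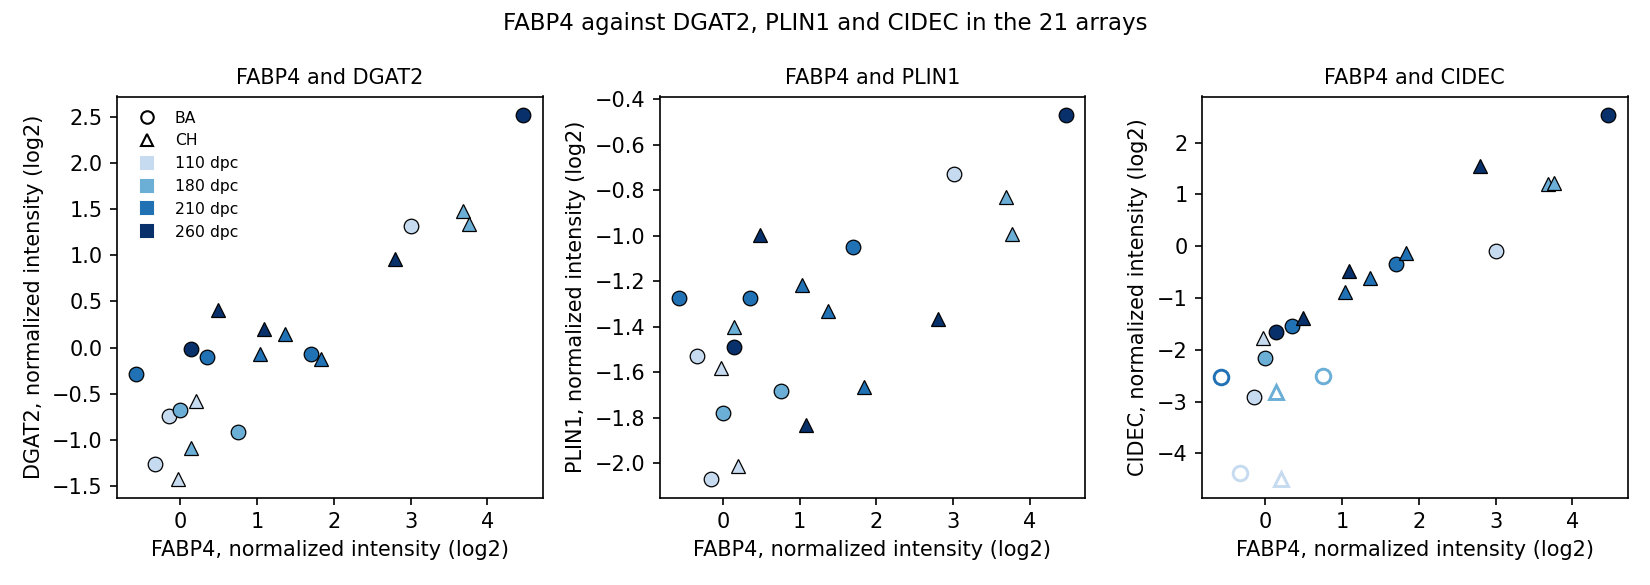
Normalized log2 intensity of *DGAT2*, *PLIN1* and *CIDEC* (vertical axes) against *FABP4* (horizontal axis) in the 21 foetuses, with circles for BA, triangles for CH and darker blue for later stages. Open symbols mark *CIDEC* values not well above background, and the 5 foetuses above 2.5 for *FABP4* come from 110, 180 and 260 dpc.

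Genes of the wider adipocyte lists passed the test between stages. No gene of any list passed in any breed comparison. Of 13 lipid droplet and lipolysis genes with a probe, 9 rose and 1 fell from 110 to 260 dpc in BA, and 7 rose and 1 fell in CH, against 15.8% and 16.2% of all probes rising and 17.5% and 16.4% falling. The monoglyceride lipase *MGLL* rose by 1.25 in BA and 0.89 in CH (limma adjusted p = 1.46e-06 and 4.14e-05), the triglyceride lipase *PNPLA2* by 1.58 and 1.87, and the glycerol channel *AQP7* by 1.71 and 1.74. *CIDEA*, a droplet protein typical of brown fat, fell by −0.69 in BA and −1.09 in CH (limma adjusted p = 0.0237 and 0.00112). The median change of the list was 0.82 in BA and 0.66 in CH. That of the muscle fibre markers over the same period was 2.91 in BA and 2.64 in CH, and the part of the fibres in the rises of this list was not tested.

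Fatty acid and triglyceride synthesis genes split. Of 16 with a probe, 7 rose and 6 fell in each breed, where 15.8% of all probes rose and 17.5% fell in BA, and 16.2% and 16.4% in CH. *GPD1*, which supplies the glycerol backbone, rose by 4.65 in BA and 4.82 in CH (limma adjusted p = 7.4e-09 and 6.26e-09), the fatty acid receptor *CD36* by 2.25 and 2.21, and the acyl-CoA synthetase *ACSL1* by 2.01 and 2.27. The lipogenic enzymes *ME1*, *ACLY* and *ELOVL6* went the other way. *ME1*, which supplies NADPH, fell (−2.85 in BA and −2.71 in CH), *ACLY*, which makes acetyl-CoA from citrate, fell (−1.50 in both breeds), and so did the elongase *ELOVL6* (−1.17 and −1.59). Muscle fibres use *GPD1*, *CD36* and *ACSL1* as well, and the fibre markers above rose over the same stages.

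Among 11 further adipogenic regulators, 3 rose and 3 fell in BA, and 4 rose and 3 fell in CH (of all probes, 15.8% rose and 17.5% fell in BA, and 16.2% and 16.4% in CH). The sterol sensor *NR1H3* rose by 0.46 and 0.76 and *KLF15* by 0.85 and 1.39, and *SREBF1*, which drives lipogenic genes, by 0.49 in CH (0.27 in BA, limma adjusted p = 0.19). *ZNF423*, which marks preadipocytes, fell (−0.87 in BA and −0.96 in CH), as did *KLF5* (−1.32 and −1.48) and *EBF1* (−0.49 and −0.62). Of the 5 genes listed as inhibitors of adipogenesis, 2 rose and 2 fell in each breed, against the same shares of all probes. *DLK1*, the preadipocyte factor that holds back differentiation, fell (−1.39 in BA and −1.48 in CH), and *SFRP1* too (−2.12 and −2.16). *SFRP1* is a secreted Wnt antagonist, and since Wnt signalling restrains adipogenesis its place in that list is doubtful: without it 2 of the listed genes rose and 1 fell. Both fell from 210 to 260 dpc on average over the breeds, *DLK1* by −1.53 (limma adjusted p = 4.84e-07) and *SFRP1* by −1.58 (limma adjusted p = 4.97e-07). *GATA2* and *GATA3*, which restrain *PPARG* in preadipocytes, rose by 1.56 and 1.50 in BA and by 1.38 and 1.52 in CH.

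Of 7 secreted factors, 5 rose and 2 fell in BA, and 4 rose and 2 fell in CH (of all probes, 15.8% rose and 17.5% fell in BA, and 16.2% and 16.4% in CH). *NAMPT* rose by 1.22 and 1.24, the chemokine *RARRES2* by 1.17 and 0.63 and *ADIRF*, an adipogenesis regulatory factor placed in this list, by 1.64 and 1.395, while the lipase inhibitor *ANGPTL4* fell (−2.41 in BA and −2.36 in CH) and the retinol carrier *RBP4* too (−1.08 and −0.73). The fall of *ANGPTL4*, which inhibits lipoprotein lipase, spanned all 3 stage steps (−1.04, −0.78 and −0.57 on average over the breeds). Of 7 brown adipocyte genes, 3 rose and 3 fell in BA and 2 rose and 3 fell in CH. The respiratory chain subunit *COX8B* rose by 2.67 in both breeds and the coactivator *PPARGC1A* by 1.14 and 1.60. The deiodinase *DIO2* rose by 2.27 in BA (0.78 in CH, limma adjusted p = 0.323). *DIO2* was well above background on 16 of 21 arrays. Its mean in BA at 110 dpc was −3.97, close to the −3.98 of *UCP1*, so its rise in BA starts from values at or near background. The muscle fibre markers rose over the same stages, and the part of the fibres in these rises was not tested. *EBF2* (−1.39 and −1.45), *CIDEA* (−0.69 and −1.09) and the elongase *ELOVL3* (−2.20 and −2.35, well above background on 6 of 21 arrays) fell. *UCP1*, the defining uncoupler, was on none of the arrays well above background.

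Of 8 markers of fibro-adipogenic progenitors, 2 rose and 1 fell in BA, and 3 fell in CH, where 15.8% of all probes rose and 17.5% fell in BA, and 16.2% and 16.4% in CH. *TCF7L2*, a Wnt effector, fell in both breeds (−1.10 and −1.20). *THY1* (−0.91) and *DCN* (−0.81) fell in CH, with −0.75 and −0.41 in BA (limma adjusted p = 0.0516 and 0.314). *NT5E* (1.75) and *PDGFRB* (1.12) rose in BA, with 0.93 and 0.19 in CH (limma adjusted p = 0.0622 and 0.68). *CD34* passed in neither breed (0.47 and 0.32, limma adjusted p = 0.0509 and 0.194). *PDGFRA*, their defining receptor, did not pass in either breed (−0.22 in BA with limma adjusted p = 0.529, −0.61 in CH with 0.0648).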

How the data were processed

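Cy3-labelled RNA of 1 foetus was hybridized to each bovine 44K array. The authors made the deposited intensity values with Agilent Feature Extraction 10.7, using background and multiplicative detrending and no background subtraction. The study's methods also name a normalization within and between arrays, whereas the deposited intensities differ in their 75th percentile. A deposited matrix by the authors holds log2 intensities of the same arrays, unscaled between arrays and empty for probes not well above background. Here control spots and 258 outlier spot values were left out, spots of a probe were averaged, and each array's 75th percentile (524.9 to 1173.5 intensity units) was subtracted on the log2 scale and 2.69 added back.

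The unfiltered 43653 probes entered a group-means fit over 8 groups (limma 3.58.1, R 4.3.3) with Benjamini-Hochberg adjustment, called under 0.05. Residual degrees of freedom were 13 and prior ones 2.12. In simulated data the fit called 62% of shifts of 1 log2 unit and 90% of shifts of 2 from 210 to 260 dpc. For the average breed difference it called 73% and 94%. There were 14 and 11 false calls among 43497 probes. A breed difference at a single stage was not simulated. Genes were named through RefSeq accessions of assembly ARS-UCD2.0. Positions are left out because the probes were designed on an older build. Genes of the wider lists were named by a rule: up to 3 per direction with the lowest p over both breeds from 110 to 260 dpc. *UCP1* and *PDGFRA* fall outside it and were named as defining markers after their values were seen. The 10 genes, the lists and the tests were chosen with earlier results of these data known. The labels give the foetuses as biological replicates.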

Additional observations from a re-analysis of the deposited data

How the results depend on the processing

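Tried were scaling by the median or by quantiles, normexp correction (offset 50), the authors' value table, sex as covariate, 2 filters on dim probes, blocks for slide or replicate number, the mean over a gene's probes, a robust trended variance, and each array left out in turn. Leaving out the 4 arrays of the last slide, and all alternatives of the change averaged over breeds, were chosen after seeing the data. Where a group keeps 1 array, limma assumes that it varies like the other groups.

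*LPL* kept its calls throughout. Of the 2 filters on dim probes, 1 kept 5 of the 8 genes and the other kept 7, so counts under them are out of 5 and 7. The share of all probes called under each setting is not given beside the counts below. From 110 to 260 dpc in BA, 1 of the 8 genes was called, and 2 under normexp, both filters, the replicate block, the trended variance and without the last slide, and 3 under median scaling. In CH 2 were called, and 1 on the authors' value table and with the slide block. On average over breeds 3 were called, 5 under normexp and 1 with the slide block. A setting that gave 3 in CH, or 2 or 4 on average over breeds, was counted as unchanged and is not named. By exact permutation 2 genes had an unadjusted p under 0.05, and 0 of 7 on the authors' value table. With 1 array left out, the counts ranged from 0 to 1 (110 to 180 dpc), 1 to 2 (BA and CH), 2 to 4 (average over breeds), stayed at 1 for both later steps and at 0 for every breed comparison, and the median SD at 260 dpc ranged from 0.39 to 0.59.

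Signs turned for differences that never passed. The average breed difference of *DGAT2* was 0.074 under normexp, 0.054 on the authors' table, 0.090 with sex and 0.044 without the last slide, and that of *PLIN1* −0.017 under quantile normalization and −0.088 over all its probes. At 260 dpc *LEP* was at −0.11 with sex and −0.017 with the replicate block, and *LPL* at 0.062 with the slide block. The change of *LEP* in BA was 0.21, 0.22 and 0.023 under normexp, quantile and median scaling and 0.31 over all its probes. With 1 array left out, the breed difference at 260 dpc ranged from −1.31 to 3.01 for *FABP4*, −0.54 to 2.00 for *DGAT2*, −0.091 to 0.93 for *PLIN1*, −0.31 to 0.083 for *LPL*, −0.52 to 0.020 for *SCD* and −0.16 to 0.69 for *LEP*. The average breed difference ranged from −0.91 to 0.17 for *FABP4*, −0.047 to 0.21 for *PLIN1* and −0.32 to 0.32 for *DGAT2*. The change in BA ranged from −0.70 to 3.63 for *FABP4*, −0.047 to 0.97 for *PLIN1* and −0.34 to 0.13 for *LEP*, and that of *CEBPA* in CH from −1.47 to 0.25. The cause was not tested.

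Replicate numbers do not pair foetuses. After centring by group, same-numbered arrays had a median correlation of −0.01 (66 pairs), and others 0.006 (126 pairs). With the replicate block *CEBPA* in BA (1.62, limma adjusted p = 0.0313) and *LEP* in CH (1.73, limma adjusted p = 0.0306) passed. Groups of 2 or 3 arrays limit the precision, and *LEP* was near background.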
